A study of Mus musculus with 24 samples.

Results

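The question was whether mouse blood without Parp1 responds to 6 Gy of X rays differently from wild-type blood. The measure is the difference of responses, that is the knockout change (6 Gy minus 0 Gy) minus the wild-type change (6 Gy minus 0 Gy), a log2 value in which 1 unit is 2-fold. It was computed for 11135 genes from 20 of the 24 arrays of the series, 5 in each of 4 groups. The groups were wild-type 0 Gy, wild-type 6 Gy, Parp1-/- 0 Gy and Parp1-/- 6 Gy, all whole blood of male 129S/J mice, 1 mouse per array, collected from the heart 24 h after X-ray or sham exposure. Per the series design, 6 Gy is the dose that kills 50% of Parp1-/- mice within 30 days, and the wild-type mice received it for comparison. The wild-type arrays at 8.8 Gy are not part of the measure. The age of the mice and the structure of the null allele are not given in the sources used here.

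Parp1 encodes the main nuclear enzyme that senses DNA breaks and marks them with chains of poly(ADP-ribose), which recruit repair factors. Ionizing radiation breaks DNA, activates the transcription factor p53 in blood cells and kills lymphocytes within hours, while mature granulocytes and platelets persist longer. A difference of responses of 0 means that a gene changed by the same amount in both genotypes, whether or not it changed. In bulk blood, fewer cells of a type and less RNA per cell cannot be told apart.

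Parp1 itself was read by 1 probe (NM_007415, mm9 chromosome 1, 182530341 to 182530639), and the labels do not say whether the null allele removes this part. Levels are log2 signals minus the 75th percentile of the array. In the sham wild-type mice (replicates 1 to 5, an order kept throughout) Parp1 was at -0.35, -0.49, -0.58, -0.94 and -0.71, each well above background. In wild-type 6 Gy it was at -1.27, -2.33, -1.88, -1.52 and -2.06, well above background on replicates 3 to 5. Knockout 0 Gy arrays gave -2.29, -2.81, -3.82, -2.90 and -3.16, and none was well above background. The irradiated knockout group gave -3.45, -5.01, -3.82 and -4.67 on replicates 2 to 5, none of them well above background. The array labelled knockout 6 Gy replicate 1 gave -1.67, and there the probe was well above background. That array was also nearly equal to the array labelled wild-type 8.8 Gy replicate 2. Their log2 signals differed with an SD of 0.167 across 10767 probes, where the median of the 276 array pairs was 0.901. Results are therefore given with and without the array labelled knockout 6 Gy replicate 1. The next closest pair was knockout 0 Gy replicates 4 and 5, with an SD of 0.262. The pair after that, wild-type 0 Gy replicates 2 and 4, had 0.431. Knockout 0 Gy replicates 4 and 5 were on the same slide as replicate 3 and scanned on the same day. Both stayed in the main fit, and whether they came from separate mice was not tested.

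The arrays were not alike in other ways. Per array, 36.4% to 57.5% of probes were well above background, on average 39.0% ± 2.35 (SD) in knockout 0 Gy and 47.3% to 49.4% in the other groups. Scanning took 4 days. Day 4 held every sham wild-type array, day 3 every irradiated wild-type one, and days 1 and 2 the sham knockouts, while irradiated knockouts fell on days 1, 3 and 4. No scan day and no slide held all 4 groups, so the difference of responses has no value within a batch. Hepatocyte markers varied within every group, with Alb (albumin) between -4.53 and 9.20. The mean of their list was 2.12 ± 4.37 (SD) in sham and 0.88 ± 3.08 in irradiated wild-type mice, and 0.27 ± 3.45 and 1.96 ± 3.90 in the knockouts.

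Limma called 170 genes, 1.53% of those tested, at an adjusted p under 0.05. In 151 of them (1.36% of the tested genes) the knockout response was lower than the wild-type response, and in 19 (0.171%) it was higher. At an unadjusted p under 0.05 there were 1637 lower (14.7%) and 836 higher genes (7.51%), 22.2% together. The wild-type response itself passed for 20.2% of genes and the knockout response for 28.1% (23.9% without the array labelled knockout 6 Gy replicate 1). Without that array the calls in the difference were 191 lower (1.72%) and 16 higher (0.144%), 1.86% together. Of these, 143 were shared, 84.1% of the calls with it and 69.1% of those without it. Of 29 gene lists for blood cells, pathways and neighbouring tissues, 1 held a called gene, the NF-kappaB subunit Relb.

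**Figure D1:**
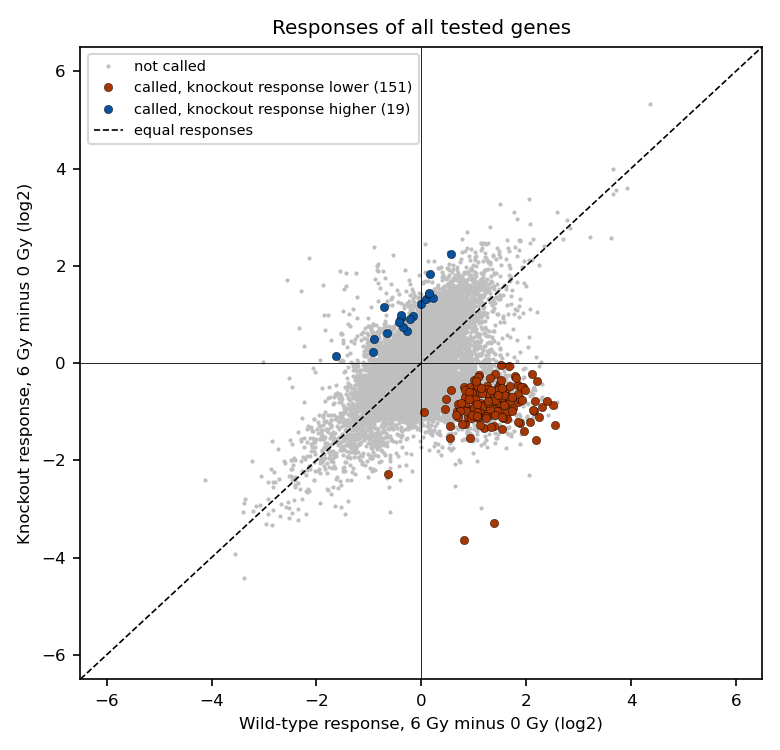
Knockout response (vertical) against wild-type response (horizontal), both 6 Gy minus 0 Gy in log2, for the 11135 tested genes, with the dashed line marks equal responses. The 151 genes called lower lie below the line, mostly at wild-type values above 0 and knockout values below 0, and the 19 called higher lie above it.

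The count of calls rested on single arrays. Leaving out wild-type 0 Gy replicates 1 to 5 in turn gave 2, 134, 1, 204 and 20 calls. The same for wild-type 6 Gy gave 2, 2, 2, 338 and 726 calls. For knockout 0 Gy it gave 652, 89, 4, 40 and 2 calls, and for the arrays labelled knockout 6 Gy 207, 16, 2, 2 and 788. In 9 of these 20 refits, 5 or fewer genes passed. At an unadjusted p under 0.05 every refit held between 2128 and 2807 genes.

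**Figure D2:**
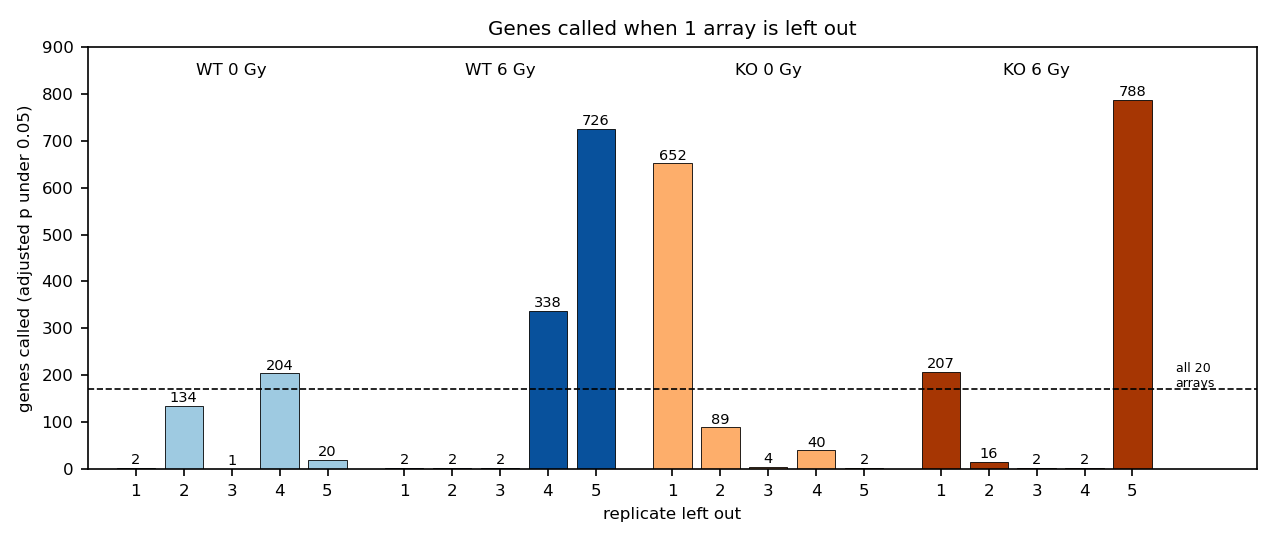
Number of genes called by limma (adjusted p under 0.05) when 1 array is left out, by the replicate left out within each group; the dashed line is the 170 calls with all 20 arrays. Counts run from 1 without wild-type 0 Gy replicate 3 to 788 without knockout 6 Gy replicate 5.

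The direction of the calls also rested on the scaling. When each array was centred on its median, 3559 genes passed (32%), 3363 higher (30.2%) and 196 lower (1.76%), and the median difference of responses over all genes was 0.91 in place of 0.09. In the authors' deposited log2 table, 105 genes were higher and 122 lower of 7806 tested. With scan day as a fixed block 3 genes passed and with slide 1, fits that join the groups only through arrays labelled knockout 6 Gy. With the replicate block 1 gene passed.

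Probes of the named genes with the most positive (8 probes) and the most negative differences (7 probes) are shown with their base composition. The lines give the first 30 of the 60 bases of each probe, 5′ to 3′ as in the array files, with G and C in capitals. Genes with a higher knockout response come first.
Bcar3: GCaGatCtaaCaGGataCaaGCCGCtaaCa
Apbb2: CaCtGaattGCtGtaaCaatGGGGtGaCaC
Tbc1d31: GCtttGGCttGtaaaGGGCttCtGGaatCt
Usp38: aatCCtGtttCaGGGaGtGtatCtCCtatG
Tmbim6: aCttaCtGGGtttGttCaCCtGtttCCaGC
Lrrc56: GGtatGCaGaaatGtGCtttaCtttGCaaG
Stk25: tCatCatttGCCttGtGGtGtCaGttCaGG
Phospho2: GaGGaaaaaCaaaataCataattGaGGtat
Mcf2l: aaCGtCtCtCCaGtttGGGtGGCtGGatCC
4931440P22Rik: CaGCGGaCaCtCCGGGtGGCGGGGaaaaGG
Arvcf: aGtCaCCttGCtaCaCtttGCtGCCtCtta
Gm5938: aCtGaataCCaCattCCtGaCttGCCtttt
Rgs7: CtCataCCCCCGCtttataaGatCtaGtGC
V1ra8: atCtCCtaCtCaaGaaCtattattaCaGGG
Olfr48: atCtGCCtGttaaaCtttCtaCttCtGatG
Over the whole probe, G and C made up 35% to 45% of the bases in the first 8 and 36.7% to 61.7% in the last 7, and these ranges overlap. Over all called genes the median was 36.7% for the 19 higher and 45% for the 151 lower, against 43.3% for all tested.

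The non-coding RNA 4931440P22Rik (NR_027955, probe at mm9 chromosome 3, 65332904 to 65332963) had the smallest p of the named genes. In sham wild-type mice it was at -3.16, -1.89, -2.69, -2.81 and -3.73, and 3 of these arrays had it well above background. It was at -0.08, -0.51, 0.09, -0.89 and -0.09 in wild-type 6 Gy. Every irradiated wild-type array lay above every sham one. Knockout 0 Gy arrays held it at -0.19, -0.67, 0.65, -0.48 and -0.31, and arrays labelled knockout 6 Gy at -0.70, -1.35, -2.30, -2.21 and -0.76. The knockout groups did not overlap either, with the irradiated one lower by a narrow margin. The wild-type response was 2.56 and the knockout response -1.27, so that the difference was -3.83 ± 0.51 (SE, adjusted p = 0.00339 by limma). Without the array labelled knockout 6 Gy replicate 1 it was -4.02 (adjusted p = 0.0023). It was the 1 named gene that kept its call in all 20 refits without 1 array (adjusted p up to 0.0127). It lost the call with a fixed block for slide (-1.84) or for day of scanning (-2.12), and with the level of never-detected probes as a covariate (-2.70, adjusted p = 0.123).

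A vomeronasal receptor and an odorant receptor, genes of sensory neurons, also had a positive wild-type and a negative knockout response. V1ra8 was at -3.18, -2.04, -2.16, -1.71 and -2.22 in wild-type 0 Gy and at -0.36, 0.35, -0.04, 0.42 and -1.32 in wild-type 6 Gy. It was at -0.50, -0.38, 0.69, -0.44 and -0.50 in knockout 0 Gy and at -1.22, -1.01, -2.59, -2.15 and -0.17 in arrays labelled knockout 6 Gy. The wild-type groups did not overlap, while 1 irradiated knockout array reached the range of the sham knockouts. The difference of responses was -3.27 ± 0.59 (SE, adjusted p = 0.0282 by limma, -3.33 without the array labelled knockout 6 Gy replicate 1). Olfr48 gave group means of -2.39 ± 1.20 (SD), -0.09 ± 0.64, -0.63 ± 0.30 and -1.54 ± 0.57 in the same order of groups and a difference of -3.21 ± 0.62 (SE, adjusted p = 0.0343). Of 1370 chemosensory receptor names on the array, 62 passed the filter on dim probes. In 61 of those 62 the difference of responses lay below 0, as it did in 45.5% of all genes tested. Their median was -1.76 against 0.09 for all genes tested, and 11 were called lower (17.7% against 1.36% of all genes tested). This class was picked after its values had been seen, and a receptor could pass the filter only by being well above background in at least 3 groups.

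Mcf2l, an exchange factor for small GTPases, had a difference of -4.68 ± 1.09 (SE, adjusted p = 0.043 by limma). It was at 0.59, -2.87, -2.18, -2.09 and 2.18 in the arrays labelled knockout 6 Gy, against 1.88 to 3.51 in knockout 0 Gy, so the spread within the irradiated group was wide. The other probe of Mcf2l gave 0.76. Rims1, a scaffold of the presynaptic release site, had -4.46 ± 1.04 (SE, adjusted p = 0.043), with arrays labelled knockout 6 Gy at -1.01, -3.12, -4.75, -4.31 and 0.42 and only 2 of them well above background. Its sign turned with a fixed block for slide (0.21) or for day of scanning (0.69). Arvcf, a catenin of cell junctions, Gm5938, and Rgs7, a regulator of G-protein signals in neurons, lay at -3.37, -3.36 and -3.36 (SE 0.68 to 0.81, adjusted p from 0.0343 to 0.0443). For these 3 genes the wild-type responses were 2.51, 1.96 and 2.25 and the knockout responses -0.85, -1.40 and -1.11. Apart from 4931440P22Rik, each of the named lower genes lost its call in 9 or more of the 20 refits without 1 array.

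Over the 151 genes called lower, the median level was -1.02 in sham and 0.22 in irradiated wild-type mice, and 0.03 and -0.87 in the knockouts. The median wild-type response was 1.31 and the median knockout response -0.82, and both share their arrays with the difference that chose the genes. Their median level over all arrays was -0.43, against 1.12 for all tested genes. Of these 151 genes 66.9% had a RefSeq symbol, against 79.8% of all tested. The share called lower was 5.53% at levels up to -1, 2.27% from -1 to 0, 1.48% from 0 to 1, and 0.167% above 4.

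Probes that were well above background on none of the 20 arrays were also higher in irradiated than in sham wild-type mice and lower in irradiated than in sham knockouts. Their median level was -5.01 ± 0.70 (SD) in sham and -4.10 ± 0.31 in irradiated wild-type mice, and -3.85 ± 0.30 and -4.71 ± 0.46 in the knockouts. The difference of responses of this level was -1.77, and -1.86 without the array labelled knockout 6 Gy replicate 1. The level was lowest on wild-type 0 Gy replicate 1 (-6.04) and highest on knockout 0 Gy replicate 3 (-3.38). When it was added to the model as a covariate, an alternative chosen after the data had been seen, limma called 0 genes (1685 at an unadjusted p under 0.05). The difference also ran with probe composition. Its median was 0.38 over genes with probes of up to 35% G and C, 0.23 from 35% to 40%, 0.04 from 40% to 45%, -0.26 from 45% to 50% and -0.35 above 50%. The level of never-detected probes itself has a difference of responses of -1.77, so the fit with it as a covariate cannot apportion the calls. The part of background level and base composition in the calls was not tested.

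**Figure D3:**
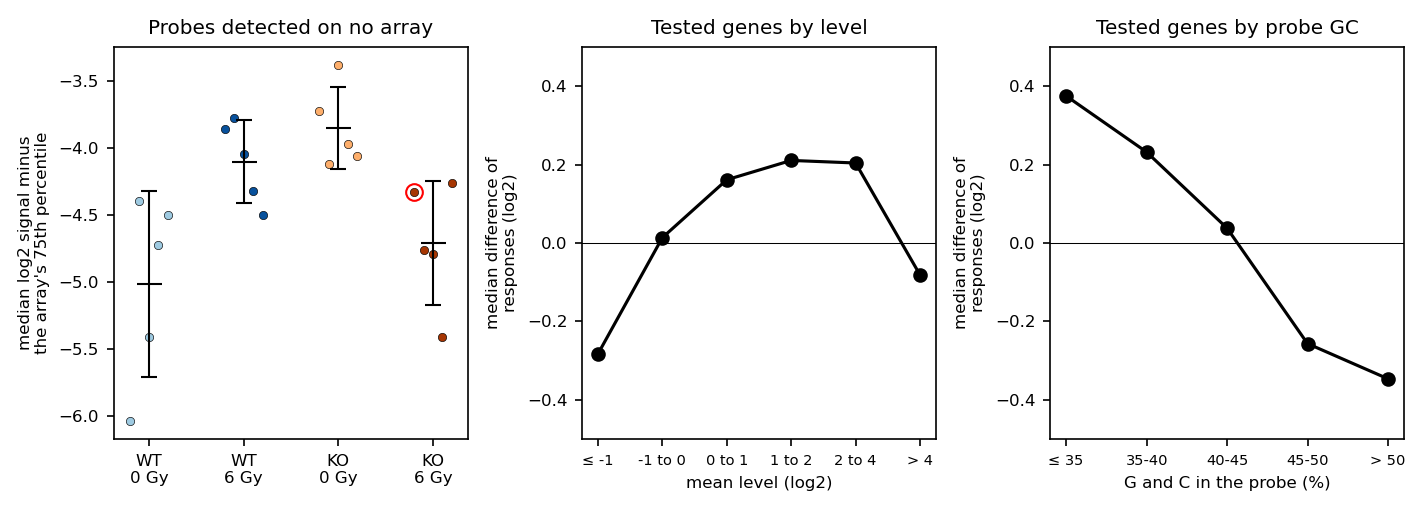
Left, the median level per array (log2 signal minus the array's 75th percentile) of probes well above background on no array, with group mean and SD; the ring marks the array labelled knockout 6 Gy replicate 1. Middle and right, the median difference of responses of tested genes by mean level and by percent of G and C in the probe, falling from 0.38 to -0.35 across the composition classes.

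In the 19 genes with a higher knockout response, the median knockout response was 0.96 and the median wild-type response -0.27. Stk25, a kinase of the Ste20 group, was at 0.82, 0.45, 0.49, 1.17 and 0.77 in wild-type 0 Gy replicates 1 to 5 and at 0.87, 1.13, 1.26, 0.58 and 0.64 in wild-type 6 Gy. It was at 0.57, 0.05, -0.18, 0.01 and 0.13 in knockout 0 Gy and at 2.01, 1.68, 1.35, 1.32 and 1.48 in arrays labelled knockout 6 Gy. The wild-type groups overlapped throughout, whereas each array labelled knockout 6 Gy lay above all arrays of the other 3 groups, with or without replicate 1. Its difference of responses was 1.29 ± 0.29 (SE, adjusted p = 0.0409 by limma, 1.18 without the array labelled knockout 6 Gy replicate 1).

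Tmbim6, the Bax inhibitor of the endoplasmic reticulum that restrains cell death, was at 4.05, 3.29, 3.52, 3.16 and 3.38 in wild-type 0 Gy and at 3.30, 3.05, 3.04, 2.99 and 3.08 in wild-type 6 Gy. Knockout 0 Gy arrays gave 3.34, 2.79, 2.09, 2.59 and 2.50, and arrays labelled knockout 6 Gy 3.84, 3.74, 3.33, 3.69 and 3.67. The irradiated knockouts lay above the sham knockouts save for 1 array at their upper end, and overlapped the sham wild-type range. The difference was 1.38 ± 0.30 (SE, adjusted p = 0.0388 by limma).

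Bcar3, an adaptor of integrin signalling, had the most positive difference of the named genes that were called, 1.86 ± 0.36 (SE, adjusted p = 0.0343 by limma, 1.66 without the array labelled knockout 6 Gy replicate 1). Its highest knockout 6 Gy value, 0.55, was on that array, and the others lay from -0.52 to -0.24 against -1.88 to -1.11 in knockout 0 Gy. Apbb2, an adaptor of the amyloid precursor protein, was at 1.67 ± 0.40 (SE, adjusted p = 0.0443). Without the array labelled knockout 6 Gy replicate 1 it did not pass (1.62, adjusted p = 0.0524). Tbc1d31 (1.66) turned to -0.26 when all probes under its file name were averaged. Usp38, a deubiquitinase, Lrrc56 and Phospho2 lay at 1.40, 1.30 and 1.27 (adjusted p from 0.0343 to 0.0437). Apbb2 and Phospho2 were each well above background on only 1 of the 5 knockout 0 Gy arrays, so their differences describe measured signals. In the refits without 1 array, each of the 8 genes lost its call at least 10 times of 20.

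The p53 targets include genes for cell-cycle arrest, apoptosis and repair. Of 43 p53 targets on the array 27 were tested, and 14 rose in wild type (9.15% of all tested genes rose) and 16 in the knockout (13% of all). Limma called 0 of the 27 in the difference, where 1.53% of all genes were called. At an unadjusted p under 0.05 there were 2, where 22.2% of all genes passed. The median was 0.45 against 0.09 for all tested genes. The 95% interval lay within 2 units of 0 for 24 of the 27 and within 1 unit for 6, against 77.8% and 21.9% of all genes. For most members a difference of 1 unit was thus not excluded. Phlda3, a p53-induced repressor of Akt, rose by 2.78 in wild type and 2.95 in the knockout, a difference of 0.17 ± 0.39 (SE, interval -0.66 to 0.99). Zmat3 and Ccng1 had differences of 0.79 (-0.17 to 1.74) and 0.41 (-0.36 to 1.17). Xpc, the damage sensor of nucleotide excision repair, had the smallest p of the list, with 0.79 ± 0.33 (adjusted p = 0.17). The list median was above 0 under all 40 alternatives, between 0.22 and 1.27. Under median centring, which turned 30.2% of all genes into higher calls, 16 of the 27 were called.

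The filter on dim probes left out 16 p53 targets, among them strongly induced genes that are dim without radiation. Under the wider filter (detection on 4 or more arrays in any 1 group) 14 more members had a probe. Cdkn1a, the p53 target that halts the cell cycle, was at -2.13, -1.90, -1.74, -3.05 and -0.71 in wild-type 0 Gy and at 2.51, 2.14, 1.97, 1.94 and 2.73 in wild-type 6 Gy. It was at -2.23, -2.34, -2.79, -2.78 and -2.72 in knockout 0 Gy, not well above background on any, and at 1.62, 1.73, 1.23, 2.04 and 1.35 in arrays labelled knockout 6 Gy. Sham and irradiated arrays were far apart in both genotypes. The probe gives only a bound in knockout 0 Gy, so the difference of 0.00 ± 0.44 (SE, interval -0.93 to 0.93) describes measured signals and not a size of induction. Plk2, Gtse1 and Tnfrsf10b likewise had measured differences of -0.27, -0.52 and -0.05. Dcxr, Slc19a2 and Ei24 had 1.53, 1.53 and 1.16, and Psrc1 -0.95, with SEs from 0.63 to 1.20 and no call. Polk, Ercc5, Ppm1d, Tigar and Trp53 had 0.45, 0.30, 0.39, 0.19 and -0.34. Apaf1, the scaffold of the apoptosome, was called under this filter (as were 6.57% of all genes, 0.706% higher and 5.86% lower), at 1.53 ± 0.40 (SE, adjusted p = 0.0364). It entered mainly through the knockout 6 Gy group, the only one with the probe well above background on more than 2 arrays, so it had to be high there.

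**Figure D4:**
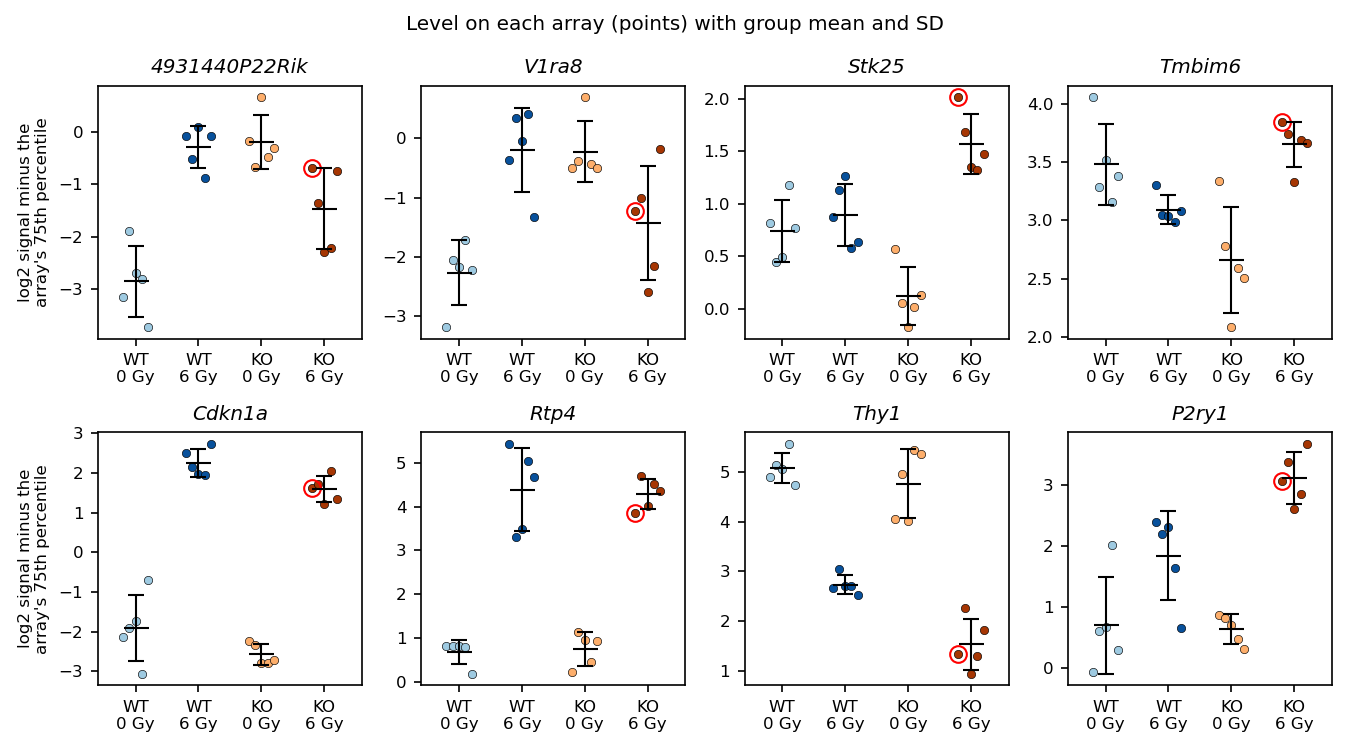
Level on each array (points; log2 signal minus the array's 75th percentile) with group mean and SD (bars) for 8 genes; WT is wild type, KO the knockout, and the ring marks the array labelled knockout 6 Gy replicate 1. In the upper row the responses of 4 called genes differ between genotypes (-3.83, -3.27, 1.29 and 1.38 from left to right), and in the lower row 4 uncalled genes respond in the same direction in both.

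Interferon-response genes encode antiviral proteins. Of 51 on the array 35 were tested, and 17 rose and 1 fell in wild type while 22 rose and 1 fell in the knockout, where 9.15% and 13% of all genes rose. Limma called 0 of them in the difference (3 at an unadjusted p under 0.05, against 22.2% of all genes), and the median was 0.10. Rtp4 was at 0.82, 0.81, 0.80, 0.79 and 0.18 in wild-type 0 Gy and at 5.43, 3.32, 3.49, 5.05 and 4.67 in wild-type 6 Gy. It was at 0.21, 1.14, 0.95, 0.44 and 0.93 in knockout 0 Gy and at 3.85, 4.70, 4.03, 4.51 and 4.35 in arrays labelled knockout 6 Gy. The irradiated groups overlapped fully, and the difference was -0.16 ± 0.48 (SE, interval -1.15 to 0.84). Oasl1, of the oligoadenylate synthetase family, had 0.33 ± 0.49. Oas3, a member of the same family, had the smallest p, with -1.64 ± 0.60 (adjusted p = 0.119). Of the 16 members that the filter left out, Oas2, Ifit1 and Ifit3 had measured differences of 0.14, 0.07 and -0.05 under the wider filter.

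T and B cell genes largely fell. Of 27 T cell genes tested 22 fell in wild type (11.1% of all genes fell) and 23 in the knockout (15.1% of all), and of 15 B cell genes 8 and 10 fell. Limma called none of the T cell or B cell genes in the difference. At an unadjusted p under 0.05 there were 2 and 3, where 22.2% of all genes passed. The medians were -0.23 and -0.33, and both turned above 0 when arrays were centred on their median (0.59 and 0.49), as did those of the NK (0.47), globin (0.12) and lung (0.09) lists. That centring moved the median of all genes from 0.09 to 0.91, and these lists lay below the median of all genes under both scalings. Thy1, a T cell surface protein, was at 2.67, 3.05, 2.71, 2.71 and 2.53 in wild-type 6 Gy and at 1.34, 2.26, 0.94, 1.30 and 1.81 in arrays labelled knockout 6 Gy, against 4.02 to 5.56 on all sham arrays. Its difference was -0.89 ± 0.41 (SE, adjusted p = 0.209). Cd27, a costimulatory receptor, was at -2.35 ± 0.72 (SE, adjusted p = 0.0724), and Siglecg, an inhibitory lectin of B cells, at -1.86 ± 0.47 (adjusted p = 0.0502). Fcmr, a receptor that binds IgM, had a measured difference of 0.34 ± 0.66, with 2 of the 5 irradiated knockout arrays well above background. MHC class II genes (8 tested, median -0.03) and NK and cytotoxic genes (13, -0.35) had no call and none at an unadjusted p under 0.05 in limma. The smallest p belonged to H2-DMa (-0.54, adjusted p = 0.583, fitted without 1 wild-type 6 Gy array whose spot was marked an outlier) and to Nkg7, of cytotoxic granules (-0.67, adjusted p = 0.265). The other probe of Nkg7 gave 0.01.

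Most platelet genes had a difference of responses above 0, and none was called. Of 34 genes, all tested, 2 rose in wild type and 23 in the knockout (20 without the array labelled knockout 6 Gy replicate 1, where 11.8% of all genes rose). Limma called 0 in the difference itself (3 at an unadjusted p under 0.05, against 22.2% of all genes). The unequal counts alone do not show unequal responses. The median difference was 0.69 against 0.09 for all tested genes, and 32 members lay above 0, as did 6072 of all 11135 genes. The median was above 0 under all 40 alternatives (0.42 to 1.90). So were the medians of the p53, cell cycle, Fc receptor and PARP lists. Median centring called 27 of the 34, against 30.2% of all genes called higher, and no other alternative called more than 4. P2ry1, an ADP receptor of platelets, was at -0.07, 0.61, 0.68, 2.03 and 0.30 in wild-type 0 Gy and at 2.40, 2.20, 2.32, 1.65 and 0.67 in wild-type 6 Gy. It was at 0.88, 0.83, 0.71, 0.48 and 0.31 in knockout 0 Gy and at 3.07, 3.39, 2.6, 2.85 and 3.67 in arrays labelled knockout 6 Gy. The wild-type groups overlapped and the knockout groups did not, with a difference of 1.33 ± 0.50 (SE, adjusted p = 0.128 by limma). F5, coagulation factor V, which had the smallest p, was at 0.82 ± 0.29 (adjusted p = 0.102), and its other probe gave 1.2. Itga2b and Gp1ba, receptor chains for fibrinogen and von Willebrand factor, were at 1.19 and 1.07. For 20 of the 34 genes the 95% interval lay within 2 units of 0.

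Of 36 red-cell genes tested 21 fell and 4 rose in wild type (11.1% of all genes fell and 9.15% rose), and 22 fell and 5 rose in the knockout (15.1% and 13% of all). Limma called 0 in the difference (4 at an unadjusted p under 0.05, against 22.2% of all genes), with a median of -0.01. Ank1, which anchors the red-cell membrane skeleton, was well above background on no wild-type 6 Gy array, so its wild-type fall is known only as a bound. Its measured difference was 1.71 ± 0.72 (SE, adjusted p = 0.168). Epb42, of the same skeleton, had 0.21, and Ermap -1.24 (adjusted p = 0.0889). The other probe of Ermap gave -0.2. The 6 globin genes, whose RNA had been depleted per the labels' protocols, had a median of -0.70 with 0 calls in limma (2 at an unadjusted p under 0.05), and Hbb-bs was at -1.46 (adjusted p = 0.181).

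Limma called 0 genes of the myeloid lists in the difference. At an unadjusted p under 0.05 there were 2 neutrophil, 4 Fc receptor, 1 monocyte and 1 eosinophil or basophil gene, against 22.2% of all genes. Of 27 neutrophil genes 8 rose in wild type (9.15% of all genes) and 7 in the knockout (13% of all), with a median difference of 0.07. Anxa1, an anti-inflammatory annexin, was at 1.14 ± 0.41 (SE, adjusted p = 0.115 by limma), and its other probe gave 0.91. Of 25 Fc receptor and phagocytosis genes 11 and 18 rose against the same shares of all genes, with a median of 0.41. Lamp2, of the lysosome membrane, was at 3.99, 3.98, 3.77, 3.79 and 3.86 in arrays labelled knockout 6 Gy and at 3.09, 3.21, 3.02, 2.76 and 2.44 in wild-type 6 Gy. It just missed the threshold (1.11 ± 0.28, adjusted p = 0.0502), and its other probe gave 0.99. Monocyte genes (26 tested) had a median of 0.24, with Ace at -1.19 (adjusted p = 0.184), and eosinophil and basophil genes (15) one of 0.22, with Gata2 at 1.29 (adjusted p = 0.167).

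Among the repair, PARP, NAD and NF-kappaB genes tested, 1 was called. Relb, a subunit of NF-kappaB, was at -0.74, -0.62, -0.17, -0.64 and -0.67 in wild-type 0 Gy and at 0.28, 1.51, 1.22, 0.40 and 0.05 in wild-type 6 Gy. It was at 0.43, 0.84, 0.51, 0.06 and 0.07 in knockout 0 Gy and at 0.26, -0.43, -0.98, -0.83 and 0.83 in arrays labelled knockout 6 Gy. The wild-type groups did not overlap and the knockout groups did, with a difference of -1.87 ± 0.46 (SE, adjusted p = 0.0468 by limma, -1.99 without the array labelled knockout 6 Gy replicate 1). The other probes of Relb gave 0.16 and 0.60, and the call was lost in 15 of 20 refits without 1 array. Relb was 1 of 15 NF-kappaB and cytokine genes tested, whose median was -0.01.

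Bard1, the partner of Brca1 in homologous recombination, was at -1.28, -0.06, -0.22, 0.00 and -0.59 in wild-type 0 Gy and at 1.15, 1.97, 1.69, 0.33 and 0.36 in wild-type 6 Gy. It was at 0.10, 0.27, 1.18, 0.57 and 0.63 in knockout 0 Gy and at 0.72, 0.33, -1.15, -0.70 and 0.49 in arrays labelled knockout 6 Gy. The difference was -2.14 ± 0.54 (SE, adjusted p = 0.0502 by limma), and -2.34 (adjusted p = 0.0401) without the array labelled knockout 6 Gy replicate 1. None of the 14 double-strand break repair genes tested passed in limma with all arrays, and the list median was 0.10. At an unadjusted p under 0.05 there were 3, where 22.2% of all genes passed. Base excision and single-strand break repair, the pathway in which Parp1 acts, had 12 genes tested and none called (none at an unadjusted p under 0.05 in limma), with a median of 0.06. Aplf, which binds poly(ADP-ribose), was at 0.94 ± 0.51 (SE, adjusted p = 0.279). The 12 PARP and ADP-ribose genes tested, also with 0 calls and 0 at an unadjusted p under 0.05, had a median of 0.38. Tiparp, a mono-ADP-ribosyltransferase, was at 0.88 ± 0.44 (adjusted p = 0.244), and its other probe gave 0.02. The 14 NAD and sirtuin genes had a median of 0.39, with 4 genes at an unadjusted p under 0.05. Among them Sirt5, a mitochondrial deacylase, had a measured difference of 1.55 ± 0.44 (adjusted p = 0.0607). Its probe was well above background on 2 of the 5 knockout 0 Gy arrays.

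The 29 lists held 134 further members with a probe only under the wider filter, and 9 of them were called there, 2 higher and 7 lower, a share near the 6.57% of all genes. Besides Apaf1, Rad51d, a gene of homologous recombination, was higher (1.40, adjusted p = 0.0453). Lower were the checkpoint kinase gene Chek1 (-2.66, adjusted p = 0.0322), Tdg, a DNA glycosylase of base excision repair (-1.91, adjusted p = 0.0321), and the ADP-ribosyltransferase gene Parp3 (-1.46, adjusted p = 0.0445). Chek1 and Rad51d were well above background on no knockout 0 Gy array, so their differences describe measured signals. Chek1 entered only through wild-type 6 Gy and Rad51d only through knockout 6 Gy. Each thus had to be high in a group that pulls its difference in the direction called. The others called lower were Tyms and Tpx2 of the cell cycle (-3.02 and -2.96, adjusted p = 0.0347 and 0.0359), Ciita, the activator of MHC class II genes (-1.58, adjusted p = 0.0456), and the lung gene Scgb1a1 (-3.21, adjusted p = 0.0447).

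**Figure D5:**
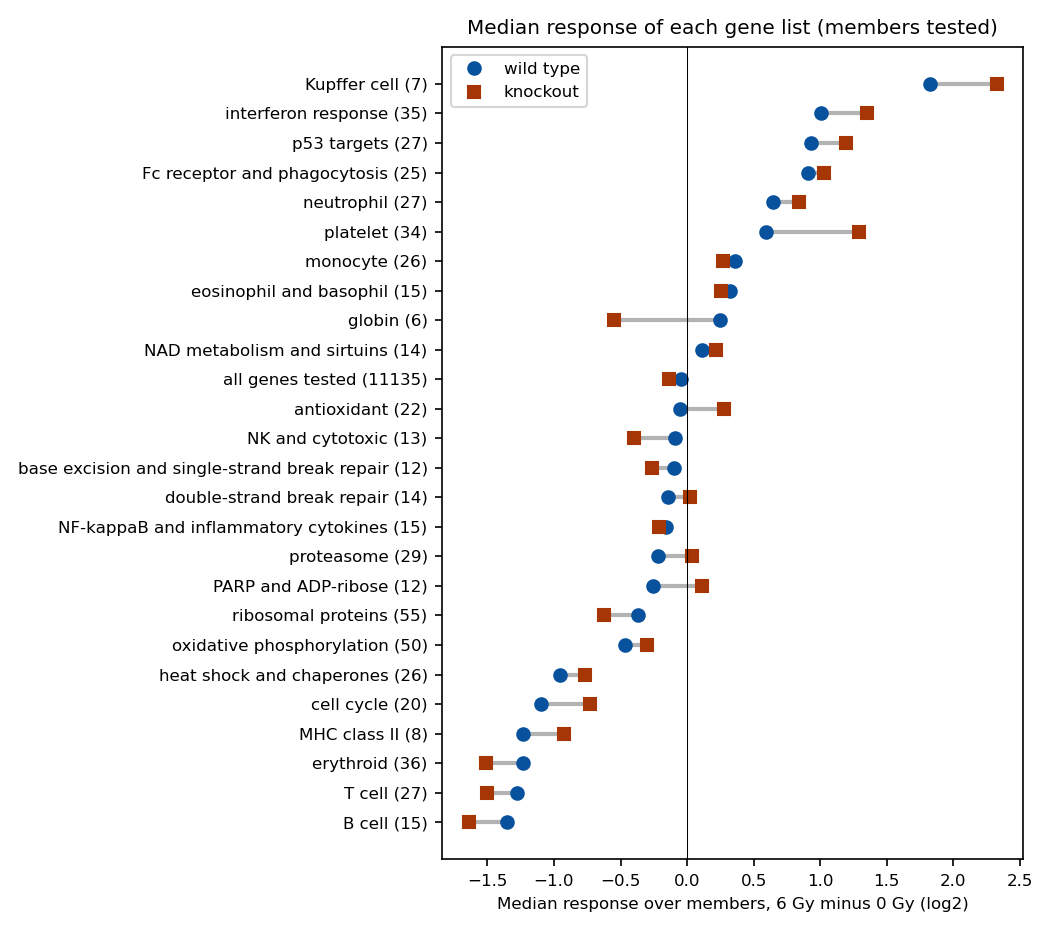
Median response of each gene list with at least 6 tested members, hepatocyte markers left out (6 Gy minus 0 Gy, log2), in wild type (circles) and knockout (squares), with the number of members tested in brackets. Interferon and p53 lists lie to the right and B cell, T cell and erythroid lists to the left in both genotypes. The globin medians are 0.24 in wild type and -0.55 in the knockout, and the platelet medians 0.59 and 1.29.

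Limma called 0 of the tested genes of the housekeeping and proliferation lists. At an unadjusted p under 0.05 there were 1 ribosomal, 1 cell cycle, 1 chaperone, 4 antioxidant, 2 oxidative phosphorylation and 1 proteasome gene. Over all genes 22.2% passed at that level. Of 55 ribosomal protein genes 6 fell in wild type (11.1% of all genes) and 30 in the knockout (15.1% of all, 16 without the array labelled knockout 6 Gy replicate 1, where 12.1% of all genes fell), while the median difference was -0.27 and 33 of the 55 intervals lay within 1 unit of 0. That median was 0.55 under median centring, below the 0.91 of all genes. Rps15 was at -1.15 (adjusted p = 0.152), and its other probe gave -0.32. Of 20 cell cycle genes 12 fell in wild type (11.1% of all genes) and 9 in the knockout (15.1% of all), with a median difference of 0.28. The mitotic genes Nusap1, Ube2c and Ccna2 had 0.58, 0.31 and -0.08, while Kif22 was at 0.88 (adjusted p = 0.165). The other probe of Ube2c gave 0.42. Chaperone genes (26) had a median of 0.13, with Bag3, a co-chaperone of Hsp70, at 1.24 (adjusted p = 0.0533). Antioxidant genes (22) had 0.13, with Nfe2l2, the regulator Nrf2, at 0.94 (adjusted p = 0.0664). Oxidative phosphorylation genes (50) had 0.10, with Sdha at 0.90 (adjusted p = 0.143), and proteasome genes (29) 0.29, with Psmd11 at 0.57 (adjusted p = 0.222).

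Of the markers of tissues that a heart puncture can bring in, most were not well above background on all arrays of at least 3 groups and so were not tested, although hepatocyte markers such as Alb were bright on some arrays. Of 30 hepatocyte markers 8 were tested, with a median difference of 2.66. Limma called 0 markers of any of these tissues. At an unadjusted p under 0.05 there were 1 heart, 1 skeletal muscle and 1 lung gene, against 22.2% of all genes. Ass1, of the urea cycle, was at 2.11 ± 1.46 (SE, adjusted p = 0.402 by limma), and its other probe gave 1.7. Heart muscle markers (2 of 15 tested) had a median of -1.46, with Myl4 at -1.22 (adjusted p = 0.0534), skeletal muscle markers (2 of 12) -1.16, with Pvalb at -1.84 (adjusted p = 0.0626), and lung markers (2 of 10) -0.73, with Sftpd at -1.89 (adjusted p = 0.0792). Kupffer cell markers (7 of 12) had 0.84, with Slc40a1, the iron exporter, also made by red-cell precursors, at 0.84 (adjusted p = 0.238). With the mean of the hepatocyte list as a covariate 691 genes passed, 309 higher and 382 lower. The part of RNA from these tissues in the other results was not tested.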

How the data were processed

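The authors' scanner files, made with Agilent Feature Extraction 11.5.1 per the submitters' processing notes, hold background-subtracted spot intensity on a linear scale, 1 file per array. Their deposited log2 table of 10214 probes (8376 empty cells) differs from the scanner signals by a single shift for each array. Scale and direction are thus known, and the rule behind the shift and the probe selection is not. Its column medians ran from 7.62 to 8.09.

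Here the log2 processed signal of 43020 non-control spots was scaled to the 75th percentile of each array, outlier spots were dropped (17 missing gene values), spots of a probe averaged, and the brightest probe of each of 30199 names kept. A gene was tested if well above background on all arrays of at least 3 of 4 groups. Of 11135 genes, 8889 had a RefSeq symbol (GRCm38.p6), 575 through their accession. Limma 3.58.1 in R 4.3.3 fitted 4 group means (16 residual degrees of freedom), with Benjamini-Hochberg adjustment over all genes, two-sided, and intervals of 95%. The number of arrays limits the precision.

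Named were the 8 genes with the most positive and the 8 with the most negative difference among called symbols (same sign without the array labelled knockout 6 Gy replicate 1, well above background on 1 array or more of each group), up to 2 called members of each of 29 lists, or else the member with the smallest p. Others (largest responses, wider filter, chemosensory receptors, further list members) were picked after their values were seen. Members and lists were chosen with earlier results of these data known. Alternatives were other scalings, filters, probe rules, blocks, weights, covariates, the deposited table and leaving out each array. Of the 16 probes of these genes, 1 sequence is not reported here.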

Additional observations from a re-analysis of the deposited data

Results flagged for a closer look

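The difference of responses itself was past limma's threshold for Bcar3 (1.86), Apbb2 (1.67), Tbc1d31 (1.66), Usp38 (1.40), Tmbim6 (1.38), Lrrc56 (1.30), Stk25 (1.29), Phospho2 (1.27), Mcf2l (-4.68), Rims1 (-4.46), 4931440P22Rik (-3.83), Arvcf (-3.37), Gm5938 (-3.36), Rgs7 (-3.36), V1ra8 (-3.27), Olfr48 (-3.21) and Relb (-1.87).

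In 211 groups of 5 arrays, over 45 named genes and 8 array measures, 16 (7.58%) held an array whose gap to the nearest other exceeded 0.71 of the group's range, where chance gives about 1 group in 20. The array labelled knockout 6 Gy replicate 1 stood apart for Bcar3 (0.548 against -0.516 to -0.24) and for the muscle gene Pvalb (-0.51 against 0.394 to 0.711). Knockout 6 Gy replicate 4 was low for Phospho2 (-1.32) and Slc40a1 (2.94), and replicate 3 was high for the mean of heart muscle markers (3.08 against -3.15 to -2.05). Knockout 0 Gy replicate 3 was high for Mcf2l (3.51) and V1ra8 (0.691), replicate 1 for F5 (3.4) and Ass1 (6.13 against 1.42 to 2.21), and replicate 2 was low for Psmd11 (0.351). Wild-type 6 Gy replicate 5 was low for Cd27 (-0.271) and high for Ass1 (6.21 against 2.18 to 2.82). In wild-type 0 Gy, replicate 1 was low for Ermap (-0.472) and high for heart muscle markers (-1.23), replicate 3 was high for Relb (-0.169) and replicate 4 for Olfr48 (-0.3).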

How the results depend on the processing

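The count of 170 calls ranged from 1 to 788 when each array was left out in turn. It was 3559 with median centring, 510 with the 75th percentile of probes detected on all 20 arrays, 89 after normexp and quantile normalization, 113 over probes detected on all 20 arrays, 1024 with detection on 4 or more arrays in any 1 group, 11927 with no filter on dim probes and 772 with the mean of all probes of a name. It was 433 with all 24 arrays, 1 and 3 with fixed blocks for slide and day of scanning, 2 and 388 with random ones (correlation 0.16 and -0.02), 1816 with array weights, 691 with the hepatocyte covariate and, in an alternative added after seeing the data, 0 with the level of never-detected probes as a covariate (1685 at an unadjusted p under 0.05 in limma). It stayed within 1.5 times with quantile normalization (128), eBayes with trend and robust (156) and the deposited table (227), and with filter and probe choice redone without the array labelled knockout 6 Gy replicate 1 (210). The cause was not tested, other than that filters change the number of genes tested.

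With the replicate block the count was 1 (2326 at an unadjusted p under 0.05). Same-numbered arrays of different groups had deviations with a median correlation of -0.06 (-0.66 to 0.68, 30 pairs). Of 20 arrays, 2 correlated best with their own number. The numbers are not stated to pair the mice, and these correlations cannot exclude a pairing with little effect on expression.

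Of 663 values of the 17 called named genes under alternatives, 360 kept sign and call, 300 lost the call and 3 turned sign, namely Tbc1d31 with the mean of all probes (-0.26) and Rims1 with a fixed block for slide (0.21) or day of scanning (0.69). Of 1160 list medians, 1086 moved by less than the SD of their members. Under the wider 4-array filter many added genes are at background in some group.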
